A study of Mus musculus with 4 samples.

Results

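The genes described are S100a8 and S100a9 and 5 genes of the stefin A family, Stfa1, Stfa2, Stfa2l1, Stfa3 and Cstdc5, which make 7 of the 17574 genes with a symbol in these data. They were chosen by name, from earlier results of the same libraries in which they stood higher in tumours of mice given an antibody against CD71. Their levels are therefore a description of these libraries and carry no test. The samples were tumours that formed in C3H/HeN mice after SCC7 cells were injected under the skin. SCC7 is a mouse squamous carcinoma line used as a transplanted model of head and neck cancer, and all samples were labelled wild type. Treated mice had received anti-CD71 on days 6 and 9, control mice were labelled only as controls, and tumours of both groups were taken on day 10. Each group had 2 libraries, and those of the anti-CD71 group are called treated replicates 1 and 2. The age of the mice, what the controls received and whether 1 library stands for 1 mouse are not stated in the sources used here, so the spread between libraries may be technical. CD71 is the transferrin receptor, encoded by Tfrc, which stood at 44.11 and 36.16 TPM in the controls and 29.0 TPM in treated replicate 2.

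S100A8 and S100A9 are small calcium-binding proteins that pair to form calprotectin, which binds zinc and manganese and is released by activated cells. Neutrophils hold them in large amounts, monocytes hold less, and keratinocytes of inflamed skin switch both genes on. Stefins are small inhibitors of cysteine cathepsins, the proteases of the lysosome. They stay inside the cell. Mice carry a cluster of stefin A genes, several of which are read in neutrophils and their precursors and some in skin.

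Values are TPM, a transcript abundance corrected for transcript length and scaled to a fixed total per library, so levels of different genes can be compared within a library. Read depth is unknown. Both controls and treated replicate 2 were complete, with 59881 transcripts each, while the values used for treated replicate 1 covered 13586 transcripts. A transcript that replicate 1 does not list is missing, not at 0. Of the 7 genes, 4 have a transcript listed for replicate 1 and 3 have none. In bulk tumour RNA, more cells of a type and more RNA per cell cannot be told apart. Treated replicate 2 stood apart by genes of skin and hair, as given below, so values of both treated libraries are shown wherever they exist. Of the squamous carcinoma label, basal and squamous genes differed among themselves. Krt8 was between 1132.27 and 1255.9 TPM in the complete libraries. In the controls Itgb4 was at 93.68 and 87.43 TPM, Itga6 at 44.58 and 47.12 TPM and Jup at 9.77 and 13.42 TPM. Krt5, a keratin of basal squamous cells, was listed at 0 in both controls, and Krt14, Epcam and Trp63 were at 0.32 TPM or less there. Of 20 basal and squamous genes found, 4 and 5 were at 0 in the controls.

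The stefin A genes lie together on chromosome 16 and fall into near-identical pairs, which bears on how far their values can be told apart. In GRCm38.p6 Stfa2l1 spans chr16:36156811-36161948, Stfa1 chr16:36277148-36285371, Cstdc5 chr16:36359382-36367570, Stfa2 chr16:36403946-36408363 and Stfa3 chr16:36450537-36455392. Each has 3 exons in GENCODE M21. The coding sequences of Stfa2l1 and Stfa2, each 312 bases, differ at 11 bases and are 96.5% identical. Those of Cstdc5 and Stfa1, each 294 bases, differ at 6 bases and are 98.0% identical. Between genes of different pairs, or with Stfa3, identity runs from 73.4% to 81.7%. The pairs are shown from the GENCODE transcripts, with the bases of the second gene that differ from the first in capitals. For the longer pair the first 300 bases are printed.
Stfa2l1: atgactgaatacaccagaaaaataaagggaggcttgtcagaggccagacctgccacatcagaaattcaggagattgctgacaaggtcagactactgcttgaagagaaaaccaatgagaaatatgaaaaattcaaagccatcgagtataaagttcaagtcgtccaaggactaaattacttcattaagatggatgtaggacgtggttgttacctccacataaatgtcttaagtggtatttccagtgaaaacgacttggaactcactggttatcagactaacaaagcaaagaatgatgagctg
Stfa2: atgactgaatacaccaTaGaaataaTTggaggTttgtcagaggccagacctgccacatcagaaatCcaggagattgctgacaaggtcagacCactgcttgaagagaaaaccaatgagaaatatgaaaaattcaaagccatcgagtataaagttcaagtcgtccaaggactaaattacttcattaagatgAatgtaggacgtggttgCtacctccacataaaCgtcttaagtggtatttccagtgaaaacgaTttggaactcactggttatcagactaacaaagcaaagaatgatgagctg
Cstdc5: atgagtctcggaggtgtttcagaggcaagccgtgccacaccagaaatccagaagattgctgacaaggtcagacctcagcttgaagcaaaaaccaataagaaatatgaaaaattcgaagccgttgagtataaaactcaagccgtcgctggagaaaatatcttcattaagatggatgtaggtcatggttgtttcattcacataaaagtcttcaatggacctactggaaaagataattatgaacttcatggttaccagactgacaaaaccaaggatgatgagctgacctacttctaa
Stfa1: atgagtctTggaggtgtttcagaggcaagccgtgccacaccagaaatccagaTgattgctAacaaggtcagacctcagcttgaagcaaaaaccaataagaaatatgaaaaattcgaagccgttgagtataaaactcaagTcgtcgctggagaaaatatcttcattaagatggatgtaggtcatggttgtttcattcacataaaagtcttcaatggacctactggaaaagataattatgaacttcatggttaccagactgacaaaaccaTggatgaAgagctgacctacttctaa
The capitals are spread thinly, so a short read can match both genes of a pair. Of all windows of 50 bases, 16.8% of those in the Stfa2l1 transcript occur in another gene of the family, as do 14.7% for Stfa2, 23.0% for Cstdc5 and 23.1% for Stfa1. For Stfa3, S100a8 and S100a9 the share is 0.0%. The read length and the program that divided shared reads are not stated in the sources used here. The reference is of C57BL/6J mice while the hosts were C3H/HeN, so values within a pair are uncertain, those of Stfa3 less so.

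The stretch just before the RefSeq start of transcription is similar among Stfa1, Stfa2, Stfa2l1 and Stfa3. The Cstdc5 window aligns to theirs with more gaps. The 150 bases before the start are shown for Stfa2l1 (chr16:36156661-36156810, plus strand) and Stfa3 (chr16:36455393-36455542, minus strand), from RefSeq on GRCm38.p6, because their starts coincide in RefSeq and GENCODE. Capitals mark aligned runs of 10 or more identical bases.
Stfa2l1: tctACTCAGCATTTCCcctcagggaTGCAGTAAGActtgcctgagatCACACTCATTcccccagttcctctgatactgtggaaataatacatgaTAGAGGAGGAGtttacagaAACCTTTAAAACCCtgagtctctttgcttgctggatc
Stfa3: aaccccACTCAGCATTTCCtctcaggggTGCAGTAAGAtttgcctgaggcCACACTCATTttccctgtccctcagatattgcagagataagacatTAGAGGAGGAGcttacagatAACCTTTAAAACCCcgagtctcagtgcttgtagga
These windows align with 79.9% identity, in which 5 such runs hold 58 bases. The longest, which is the run nearest the start but does not reach it, has 14. Among the windows of Stfa1, Stfa2, Stfa2l1 and Stfa3 identity runs from 78.1% to 86.4%, and that of Cstdc5 to these 4 from 60.2% to 71.3%. Gaps count as positions that are not identical. The alignments with Cstdc5 span 171 to 176 positions, those among the other 4 genes 152 to 155. The lower identity of Cstdc5 thus includes more gaps and does not show that its bases differ more. In the 250 bases before the start, the C/EBP-like letters TTGCNNAA occur on either strand in 3 of the 7 genes (S100a9, Stfa1 and Cstdc5) and in 9.6% of all 32851 promoters. The TATA box letters TATAAA occur in S100a8 alone of the 7 and in 12.4% of promoters. STAT-like TTCNNNGAA, AP-1-like TGANTCA and an NF-kB-like motif occur in none of the 7, and in 7.0%, 6.7% and 0.4% of promoters. These windows end at the RefSeq start. GENCODE starts S100a8, Stfa1, Stfa2 and Cstdc5 further upstream. The matches in S100a8, Stfa1 and Cstdc5 therefore lie within the GENCODE transcripts' span. So do the whole 150-base windows of Stfa1 and Cstdc5 and a part of that of Stfa2. C/EBP factors drive granulocyte genes, but a match of letters shows no binding.

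S100a8, at chr3:90669071-90670034, was the highest of the 7 genes in control replicate 1 and treated replicate 2, and S100a9 was the highest in control replicate 2. S100a8 stood at 5.22 and 1.46 TPM in the controls and at 265.49 TPM in treated replicate 2. By level it ranked 9965 and 11670 among all genes in the controls and 514 in that library. Its transcript was not among those listed for treated replicate 1. The ratio of treated replicate 2 to the control mean was 79.5, a log2(TPM + 1) difference of 6.09.

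S100a9, its partner, at chr3:90692630-90695721, moved to a like level. Its 2 transcripts together stood at 3.67 and 1.83 TPM in the controls and at 212.99 TPM in treated replicate 2, a ratio of 77.5 to the control mean and a log2(TPM + 1) difference of 5.88. Here replicate 1 can be read as well, since 1 of the transcripts was listed in all 4 files. That transcript was at 3.67 and 0 TPM in the controls, 142.39 TPM in treated replicate 1 and 183.5 TPM in replicate 2. Both treated libraries were high and both controls near 0. Over listed transcripts, both treated libraries lay above both controls in 21.0% of 5072 genes with at least 1 TPM in a library. The listed S100a9 transcript carried all of the gene's TPM in control replicate 1, none in control replicate 2 and 86.15% in treated replicate 2. The value of replicate 1 is therefore a part of the gene's level. The TPM ratio of S100a8 to S100a9 was 1.42 and 0.798 in the controls and 1.25 in treated replicate 2.

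All 5 stefin genes were listed at 0 TPM in both controls and above 0 wherever a treated library lists them. Stfa2l1 was at 10.4 TPM in treated replicate 1 and 10.7 TPM in replicate 2. The libraries differed by a ratio of 1.03, so Stfa2l1 was the most even of the 3 stefins listed in all files. Cstdc5, the most abundant stefin of replicate 2, was at 1.34 TPM in replicate 1 and 22.68 TPM in replicate 2, a ratio of 16.9. Stfa3 was at 1.11 and 7.89 TPM, a ratio of 7.11. S100a9's listed transcript had a ratio of 1.29. The treated libraries were thus alike in S100a9 and Stfa2l1 and unlike in Cstdc5 and Stfa3.

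For Stfa1 and Stfa2 only replicate 2 is known, at 5.21 and 2.28 TPM. Each was the lower gene of its near-identical pair, below Cstdc5 and Stfa2l1 respectively. Summed, the 5 stefins reached 48.76 TPM in treated replicate 2, less than S100a8 or S100a9 alone. Over the 3 stefins listed in all files the sum was 0 TPM in each control, 12.85 TPM in treated replicate 1 and 41.27 TPM in replicate 2. Cstdc4, a further gene of the same cluster that was not among the 7, was at 0 and 0.6 TPM in the controls and 5.35 TPM in replicate 2. Of related cystatin genes also found, Csta2 was at 1.84, 0 and 2.41 TPM in these libraries and Cstdc2 at 0.02, 0.18 and 0.33 TPM.

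**Figure D1:**
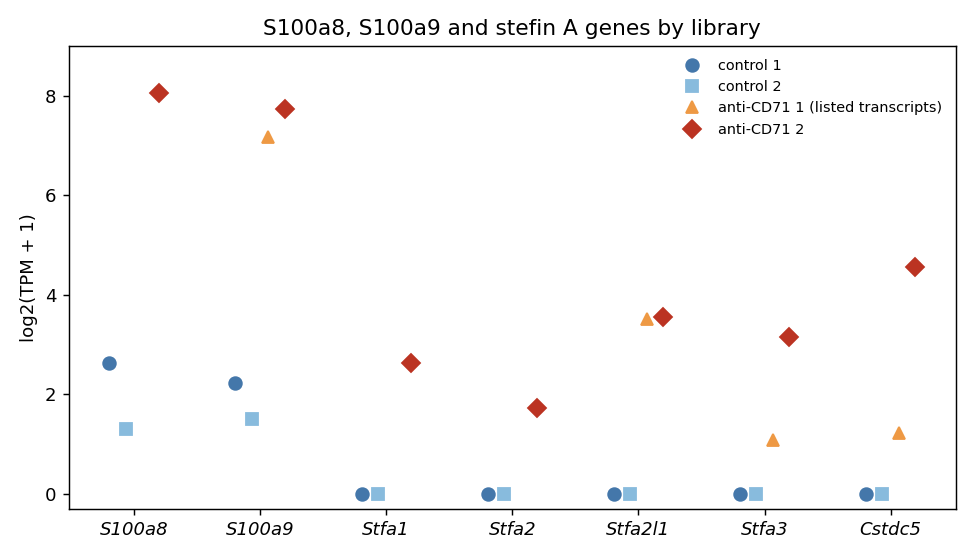
Level of each gene, as log2(TPM + 1), in each library; triangles show treated replicate 1 over its listed transcripts only and are absent for S100a8, Stfa1 and Stfa2, which it does not list. Every treated point lies above both control points, from 1.11 TPM for Stfa3 in replicate 1 to 265.49 TPM for S100a8 in replicate 2. The genes were chosen from this contrast. Over listed transcripts 21.0% of 5072 genes lay above both controls in both treated libraries.

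In treated replicate 2 all 7 genes exceeded both controls by more than 1 on the log2(TPM + 1) scale, as did 1.57% of 12457 genes with at least 1 TPM in some complete library. This is the contrast they were chosen from. Ranked by that difference among 17574 genes, S100a8 was at place 2 and S100a9 at 4, Cstdc5 at 14, Stfa2l1 at 25, Stfa3 at 35, Stfa1 at 59 and Stfa2 at 117. Stfa2, the last of these, also had the lowest level of the 7 in that library. A filter of 1 TPM in 2 libraries, used for the fits below, was passed by S100a8 and S100a9 over the 3 complete libraries. Over 4 libraries it was passed by Stfa2l1, Stfa3 and Cstdc5, through the treated libraries alone.

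Being listed at 0 in both controls was shared with genes of hair and skin, but those listed for treated replicate 1 were at 0 there. Among genes with at least 1 TPM in a complete library, 87 (0.698%) were at 0 in both controls, and 41 of them had a symbol that starts with Krt, as keratin and keratin-associated genes do. Of the 87, 21 were listed for treated replicate 1. In that library 18 of the 21 were at 0, among them Krt25, a keratin of the hair root sheath, and Krtap15. The other 3 were Stfa2l1, Stfa3 and Cstdc5. They were the whole of the 0.185% of 1624 genes over 4 libraries at 0 in both controls and at 1 TPM or more in both treated libraries. Stfa3 and Cstdc5 met that cut narrowly in replicate 1, at 1.11 and 1.34 TPM. The 3 genes had been chosen for standing higher in these treated libraries, so this describes them and tests nothing.

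By profile over the 3 complete libraries, the genes most like S100a8 and S100a9, leaving out the 7, included keratin genes of hair and squamous cells. Likeness was the Euclidean distance between log2(TPM + 1) values centred on the control mean. The nearest were the hair root sheath keratin genes Krt71 (distance 0.718; 0.06, 0 and 77.12 TPM in the controls and treated replicate 2) and Krt25 (0.73; 0, 0 and 60.54 TPM). Krtap22-2, Krt14, Tchh, Krt27, Krtap8-1, Krt5, Gm10147 and Krtap7-1 followed, at distances up to 1.277. With 3 points this likeness mostly orders genes by the size of their difference in 1 library. Of these 10, Krt25 and Krtap8-1 were listed in full for treated replicate 1, at 0 TPM each. There the profile parted from that of S100a9.

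Over 4 libraries the genes most like Stfa2l1 included 2 chemokine genes. The search took the 1563 genes tested over 4 libraries and left out the 7 genes described. Genes with less than 90% of their TPM in listed transcripts, the neutrophil genes Retnlg and Lcn2 among them, were not searched. The nearest was Cxcl2, a chemokine that draws neutrophils (distance 1.385), at 3.21 and 7.19 TPM in the controls and 52.18 and 29.73 TPM in treated replicates 1 and 2. Next came the chemokine gene Ccl3 (1.848), at 4.51 and 4.71 TPM in the controls against 42.06 and 18.41 TPM. Slpi, an inhibitor of neutrophil serine proteases, came after it (2.546), at 3.9 and 2.14 TPM against 15.5 and 10.07 TPM. Hdc, the histamine-forming enzyme that neutrophil precursors and mast cells also make, had 2.62 and 1.32 TPM against 7.04 and 7.42 TPM (2.899). Ctsk, a cathepsin described below, had a distance of 3.133. Cxcl2, Ccl3 and Slpi were higher in replicate 1 than in replicate 2, the opposite order to Cstdc5 and Stfa3.

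Neutrophil markers were compared next, since the 7 genes are abundant in that cell. Of 29 markers listed, 28 were found, and their summed level was 136.57 and 162.55 TPM in the controls and 245.78 TPM in treated replicate 2. Over the transcripts listed in all 4 files (13 genes) the sum was 30.95 and 35.24 TPM in the controls, 57.1 TPM in treated replicate 1 and 41.07 TPM in replicate 2. Of the 9 of these genes with at least 1 TPM, 6 lay above both controls in both treated libraries, as did 21.0% of all such genes. Cxcr2, the chemokine receptor of mature neutrophils, had 0 and 0 TPM in the controls and 1.16 and 1.5 TPM in treated replicates 1 and 2 over its listed transcript. Genes made in neutrophil precursors differed among themselves. Lcn2, the gene of a siderophore-binding granule protein that epithelia also make, was at 0, 0.45 and 9.66 TPM in the controls and treated replicate 2. Ctsg was at 7.33 and 10.21 TPM in the controls and lower in that library, as given below. The others named here were low, with Ngp at 0.67 TPM and Camp at 0.39 TPM in replicate 2 (0 in each control), and Elane, Mpo and Ltf at 0.3 TPM or less in the complete libraries. Retnlg, a gene of mature mouse neutrophils, was at 0, 0 and 17.34 TPM in the complete libraries.

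Tested with limma over 4 libraries, Slpi and Hdc rose among 4 neutrophil genes tested, where 0.832% of 1563 tested genes were called higher. The change in Slpi was 1.78 on the log2 scale (SE 0.28, adjusted p = 0.0387) and that in Hdc 1.51 (SE 0.22, adjusted p = 0.0387), and both were higher in 2 of 2 treated libraries. Neither passed without control replicate 1 (adjusted p = 0.189 and 0.127 by limma) or without control replicate 2 (0.343 and 0.255), and Hdc did not pass without treated replicate 2 (0.0613). Over the 3 complete libraries, with treated replicate 2 assumed to vary like the controls, 2 of 15 neutrophil genes rose and 1 fell, against 0.476% and 2.39% of 11982 genes. Hp, the haptoglobin gene, rose (log2 change 2.51, SE 0.36, adjusted p = 0.0431), as did Il1r2, the decoy receptor for interleukin 1 (1.95, SE 0.20, adjusted p = 0.0273). Ctsg, a serine protease of azurophil granules, fell (-2.16, SE 0.21), and stood at 6.53 TPM in treated replicate 1 against 7.33 and 10.21 TPM in the controls. Over 4 libraries Ctsg did not pass (-1.26, SE 0.56, adjusted p = 0.219 by limma). Of the 31 list genes called over 3 libraries, 2 (S100a3 and Sfn) passed with a filter of 1 TPM in 1 library. The median change of the 15 genes was 0.48, beside -0.01 over all genes tested.

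Monocyte and macrophage genes, the other myeloid carriers of S100A8 and S100A9, were lower or not called, apart from Cd163. Chil3, the monocyte gene that did not pass the filter, stood higher, at 0.44 and 0.14 TPM in the controls and 4.97 TPM in treated replicate 2. Of 9 monocyte genes tested over 3 libraries 0 rose and 2 fell, Fn1 (-0.62) and Ms4a6c (-0.59), of which Fn1 is also made by many other cells. Of 12 macrophage genes 6 fell and 1 rose, Cd163 (1.26), where 2.39% of all genes tested fell and 0.476% rose. The median change was -0.23 for the monocyte and -0.74 for the macrophage genes. Ptprc, the gene of the leukocyte surface protein CD45, stood lower beside them, at 53.53 and 60.15 TPM in the controls and 29.4 TPM in treated replicate 2. C1qb (-1.37), C1qc (-1.31), C1qa (-1.23) and Csf1r (-1.06) fell most. Csf1r, the macrophage growth factor receptor, also fell over 4 libraries (-1.03, SE 0.11, adjusted p = 0.032), where 3.45% of genes were called lower. Its levels were 125.77 and 156.93 TPM in the controls and 69.38 and 66.83 TPM in the treated libraries. Without control replicate 1 its adjusted p was 0.127 and without control replicate 2 it was 0.255.

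Epidermal and hair genes, the skin compartment in which S100a8, S100a9 and some stefins can be read, were high in treated replicate 2 and, by their sums, near the controls in replicate 1. The summed level of 27 cornified epidermis genes was 25.57 and 28.79 TPM in the controls and 124.7 TPM in treated replicate 2, with 16 and 19 of the 27 at 0 in the controls. Over the 12 genes with a transcript listed in all files, the sums were 22.99 and 26.04 TPM in the controls, 25.65 TPM in treated replicate 1 and 73.59 TPM in replicate 2. The 4 hair follicle genes so listed summed to 0.24, 0.29, 0.05 and 110.86 TPM in the same order. By these sums replicate 1 lay at the level of the controls in both lists. In those 3 libraries the cornified sum was mostly Sprr1a, at 19.47 and 22.39 TPM in the controls and 20.43 TPM in replicate 1. Krt16 was at 2.37 and 1.46 TPM in the controls and 3.69 TPM in replicate 1. Of 8 cornified genes with at least 1 TPM, 2 lay above both controls in replicate 1, as did 29.9% of all such genes. The S100a9 transcript of replicate 1 was at 142.39 TPM and Stfa2l1 at 10.4 TPM. In replicate 2 the skin and hair genes were high beside all 7 genes, and their part in the values of that library, Cstdc5 and Stfa3 included, was not tested. Over 3 libraries Dmkn (3.27), Sbsn (1.71) and Krt16 (1.53) rose among 5 cornified epidermis genes tested. Of 7 basal and squamous genes Sfn (2.49) and Krt18 (0.42) rose, and of hair follicle genes 0 of 1, where 0.476% of all genes tested rose. Over 4 libraries 3 cornified epidermis genes were tested and 0 passed. Dmkn changed by 1.80 (SE 0.85, adjusted p = 0.238 by limma) and Krt16 by 1.12 (SE 0.31, adjusted p = 0.109 by limma). The filter of 1 TPM in 1 library took in 17 cornified, 17 basal and squamous and 12 hair follicle genes. That filter admits genes through treated replicate 2 alone, so calls with it rest on the library in which these genes are high.

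**Figure D2:**
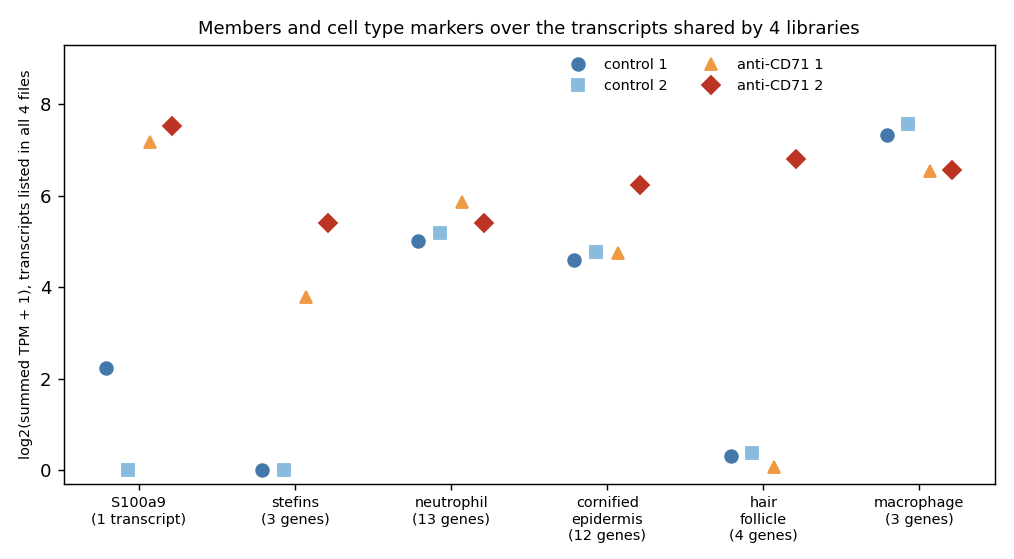
Summed level, as log2(TPM + 1), of the transcripts listed in all 4 files for S100a9, the stefins Stfa2l1, Stfa3 and Cstdc5, and 4 marker lists, 1 point per library. S100a9 and the stefin sum lie above both controls in both treated libraries. The stefin sum is 12.85 TPM in replicate 1, of which Stfa2l1 holds 10.4 TPM, and 41.27 TPM in replicate 2. The hair follicle sum is 110.86 TPM in replicate 2 and 0.05 TPM in replicate 1.

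Among the other S100 genes only S100a3 was called, and it rose. Of 12 found, 8 were tested over 3 libraries, 1 rose and 0 fell, with a median change of 0.13, where 0.476% of all genes tested rose. With the filter of 1 TPM in 1 library 9 were tested, S100a14 being admitted through treated replicate 2 alone. S100a3, known from the hair cuticle, was at 2.75 and 2.88 TPM in the controls and 31.02 TPM in treated replicate 2 (log2 change 3.07, SE 0.12, adjusted p = 0.00285). S100a14, an epithelial gene, did not pass the filter of 1 TPM in 2 libraries and stood at 0.47, 0.51 and 9.93 TPM. The abundant genes S100a4 (10308.53 to 11370.8 TPM, log2 change -0.01), S100a6 (0.26), S100a10 (0.17) and S100a11 (0.10) did not pass. S100a4 was in every complete library far above S100a8 and S100a9, also in treated replicate 2. S100a10, listed in all 4 files, was at 2362.06 and 2501.18 TPM in the controls and 2749.21 and 2725.91 TPM in the treated libraries (adjusted p = 0.141 by limma).

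Of the other cystatins tested, none was called higher. Cstb, the other stefin of the mouse and widely expressed, was at 1459.99 and 1171.17 TPM in the controls and 1141.4 TPM in treated replicate 2 and did not pass. It exceeded the 5 stefin A genes together in every complete library. Cst3, the secreted cystatin C, did not pass either (-0.39, adjusted p = 0.0727 by limma). Cst7, a cystatin of cytotoxic lymphocytes and macrophages, fell, with 7.37 and 7.11 TPM in the controls and 1.86 TPM in treated replicate 2 (log2 change -1.53, SE 0.14, adjusted p = 0.0242). Of 5 tested, 1 fell and 0 rose, with a median change of -0.20, where 2.39% of all genes tested fell.

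The cysteine cathepsins, the proteases that stefins inhibit, changed in both directions. Of 10 tested over 3 libraries, 2 rose and 3 fell, beside 0.476% and 2.39% of all genes tested, and the median change was -0.29. Ctsk, the cathepsin of bone-resorbing cells and fibroblasts, rose (log2 change 1.82, SE 0.17, adjusted p = 0.0249), and Ctsl rose from 2264.16 and 2111.16 TPM to 3127.1 TPM (0.52, SE 0.06, adjusted p = 0.0318). Ctsc, which activates the serine proteases of granules, fell (-1.11, adjusted p = 0.0127), as did Ctss, of antigen-presenting cells (-0.96, adjusted p = 0.0105), and Ctsh (-0.68, adjusted p = 0.0491). Ctsb, at 1598.55 to 1982.27 TPM, did not pass. Over 4 libraries only Ctsk could be tested, at 4.41 and 3.23 TPM in the controls and 7.9 and 16.14 TPM in treated replicates 1 and 2, and it did not pass (1.37, SE 0.32, adjusted p = 0.0759).

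Genes for proteins that S100A8 and S100A9 act through were not called higher either. Of 14 tested over 3 libraries 0 rose and 4 fell, where 2.39% of all genes tested fell, and the median change was -0.06. Those that fell were 3 genes of the phagocyte NADPH oxidase, to which calprotectin binds, and Cd14, the co-receptor of TLR4. The oxidase genes were Cybb (log2 change -1.01), Ncf4 (-0.83) and Cyba (-0.77). Tlr4 (-0.13), its partner Ly96 (0.11), Ager, the receptor for advanced glycation end products (0.04), and Bsg (0.09) did not pass. Over 4 libraries Cd14 fell among 2 tested, where 3.45% of all genes tested fell. It was at 265.21 and 282.87 TPM in the controls and 206.7 and 195.73 TPM in the treated libraries (-0.44, SE 0.07, adjusted p = 0.0387). The adjusted p of Cd14 by limma was 0.189 without control replicate 1, 0.343 without control replicate 2, 0.0604 without treated replicate 2 and 0.0614 with median scaling.

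Regulators of granulocytes and of the 7 genes were mixed. Of 9 tested over 3 libraries, Il1b rose, at 12.21 and 10.63 TPM in the controls and 48.64 TPM in treated replicate 2 (log2 change 2.00, SE 0.12, adjusted p = 0.00798). Cebpd (-1.16) and Spi1 (-0.65) fell, so that 1 rose and 2 fell where 0.476% and 2.39% of all genes tested did, and the median change was -0.37. Cebpb, a C/EBP factor active in myeloid cells, stood at -0.54 and did not pass, and Csf3r, the receptor for the granulocyte growth factor, at 0.40, did not pass. Csf3, which encodes that factor, was not tested and was at 0.16, 0.17 and 2.53 TPM. Il17a was listed at 0 in the 3 complete libraries.

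**Figure D3:**
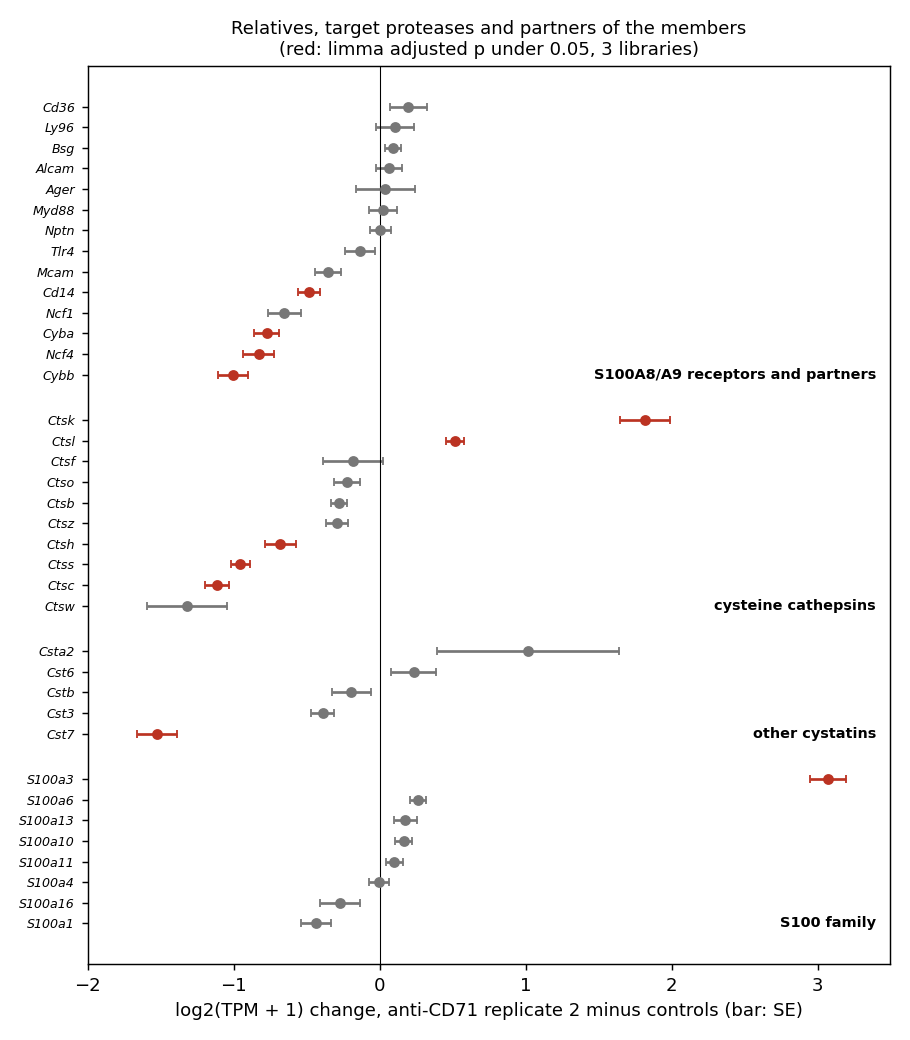
Change in log2(TPM + 1) between treated replicate 2 and the 2 controls, with its SE from limma, for tested genes of 4 lists around the 7 genes; red marks an adjusted p under 0.05. S100a3 (3.07) and Ctsk (1.82) lie farthest to the right and Cst7 (-1.53) farthest to the left.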

How the data were processed

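Tumour RNA was sequenced in 4 libraries, 2 per group. The authors deposited TPM per RefSeq transcript, to the nearest hundredth, and the submitters' processing notes name build GRCm38.p6. Aligner and quantifier are not stated in the sources used here. The values of anti-CD71 replicate 1 ended inside a line, which was dropped, leaving 13586 transcripts (22.69%). Symbols from a RefSeq table of that build matched 58425 of 59881 transcripts, and TPM were summed per gene. The unmatched held 1.42% to 1.55% of TPM. Python 3.11.15, Biopython 1.88 (alignment) and GENCODE M21 served for sequences.

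Tests ran in R 4.3.3 with limma 3.58.1, taking log2(TPM + 1) values with a variance trend for genes with at least 1 TPM in 2 libraries, with calls at an adjusted p under 0.05 (Benjamini-Hochberg, all genes tested). This scale understates changes of low genes. The fit over 4 libraries took genes whose listed transcripts carry at least 90% of their TPM. The fit over 3 libraries set anti-CD71 replicate 2 against both controls. Both were tested on simulated data. The 7 genes, the 11 lists (188 symbols, 170 found, with 1 further gene not reported here) and the naming rule (called list genes, the 10 and 5 nearest profiles) were chosen with earlier results of these data known. Alternatives were another pseudocount, filters, median scaling, a replicate block and leaving out each library.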

Additional observations from a re-analysis of the deposited data

How the results depend on the processing

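TPM keeps no depth, so the counting error of values near 0 cannot be estimated. The S100a8 difference (6.09) ran from 5.42 to 6.76 and that of S100a9 (5.88) from 5.52 to 6.24 when either control was left out, and both stayed within 1 SD of the controls under pseudocount 0.1, no pseudocount and median scaling. Counts of called genes were less stable. Over 4 libraries limma called 13 higher and 54 lower. A filter of 1 TPM in 1 library gave 1 and 7, no filter 1 and 0 (435 at an unadjusted p under 0.05), and median scaling 21 and 36. Leaving out 1 library gave from 1 to 35 higher and from 0 to 61 lower, the 0 without either control (270 and 171 at an unadjusted p under 0.05). Over 3 libraries 57 and 286 were called. A filter of 1 TPM in 1 library gave 60 and 12, no filter 0 and 0 (3401 at an unadjusted p under 0.05), and median scaling 38 and 187. The cause was not tested. Of the 31 list genes called over 3 libraries, 24 were called with pseudocount 0.1, 24 with median scaling, 2 with the filter of 1 TPM in 1 library and 0 with no filter. Leaving out a control over 3 libraries leaves no residual degrees of freedom, so it gave values only. The replicate numbers share only a number (correlation of deviations -0.006 over 1563 genes). With the replicate block 2 genes were called higher and 1 lower, and of the 4 list genes called over 4 libraries (Slpi, Hdc, Csf1r, Cd14) Slpi alone passed (adjusted p = 0.0173). With the filter of 1 TPM in 1 library Csf1r alone passed, and with no filter none did.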
